A study of Mus musculus with 6 samples.

Results

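Sarcolemma repair genes were followed in skeletal muscle RNA from 3 transgenic (TG) and 3 wild-type (WT) mice; the title of the series names SOCS-3 in muscle. The group was made of 10 genes, Trim72, Cav3, Dysf, Myof, Capn3, Anxa1, Anxa2, Anxa5, Anxa6 and S100a10, taken wherever a probe set carried that single gene symbol in the platform annotation. By this rule 9 of the 10 genes had a value, through 10 probe sets, out of 19938 genes measured. Trim72 was chosen by its log2 difference between these same TG and WT arrays and the others joined it as genes of the same process, so the TG and WT values of all 9 are given as a description and no test is read from them. Each group had 3 arrays (Affymetrix MoGene), each labelled with a separate mouse. The labels give the TG animals as transgenic and the WT animals as wild type, and no further allele, agent, age or named muscle; what the transgene carries and which promoter drives it could not be read from the labels.

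A muscle fibre tears its surface membrane, the sarcolemma, during ordinary contraction and reseals it within seconds to minutes. Calcium and oxidants that enter through the tear bring vesicles and membrane-binding proteins to the site: the TRIM-family protein MG53 (the product of Trim72) gathers vesicles, dysferlin takes part in their fusion with calcium, caveolin-3 keeps both proteins at the membrane, calpains cleave proteins at the wound, and annexins with their S100 partners form a cap over it. Loss of dysferlin, caveolin-3 or calpain-3 causes muscular dystrophy in people. Trim72, Cav3 and Capn3 are largely restricted to striated muscle, whereas Anxa1, Anxa2, Anxa5, S100a10 and Myof are also expressed by fibroblasts, endothelium and blood cells.

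The RefSeq promoter table (GRCm38.p6) held windows for 8 of the 10 genes, each running from 250 bases before to 50 bases after an annotated start site. Those of Trim72 and Cav3 are shown because both genes had lower values on every TG array than on every WT array, and those of Anxa1 and Anxa2 because both were highest on TG arrays 1 and 2. Capitals mark the E-box CANNTG, the letters bound by myogenic factors such as MyoD, and the TATA box TATAAA. The windows are chr7:128004128-128004427 (plus strand) for Trim72, chr6:112459255-112459554 (plus strand) for Cav3, chr19:20390622-20390921 (minus strand) for Anxa1 and chr9:69453433-69453732 (plus strand) for Anxa2, each written 5′ to 3′ along its gene.
Trim72: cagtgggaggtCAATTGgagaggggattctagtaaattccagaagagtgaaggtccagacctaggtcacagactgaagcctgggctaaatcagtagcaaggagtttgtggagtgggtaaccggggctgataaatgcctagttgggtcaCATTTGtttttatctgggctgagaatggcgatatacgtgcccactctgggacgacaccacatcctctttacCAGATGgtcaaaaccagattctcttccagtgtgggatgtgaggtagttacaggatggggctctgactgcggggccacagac
Cav3: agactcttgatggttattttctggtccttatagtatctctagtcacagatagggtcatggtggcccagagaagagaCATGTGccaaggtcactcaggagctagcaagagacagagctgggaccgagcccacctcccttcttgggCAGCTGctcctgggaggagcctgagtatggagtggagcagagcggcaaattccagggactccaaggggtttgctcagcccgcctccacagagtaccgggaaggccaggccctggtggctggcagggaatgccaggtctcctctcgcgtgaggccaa
Anxa1: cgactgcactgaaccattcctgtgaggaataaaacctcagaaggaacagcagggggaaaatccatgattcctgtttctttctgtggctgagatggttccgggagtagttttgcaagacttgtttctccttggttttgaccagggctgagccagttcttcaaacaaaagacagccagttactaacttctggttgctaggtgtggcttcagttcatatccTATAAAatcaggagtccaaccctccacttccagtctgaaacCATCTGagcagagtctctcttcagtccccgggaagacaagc
Anxa2: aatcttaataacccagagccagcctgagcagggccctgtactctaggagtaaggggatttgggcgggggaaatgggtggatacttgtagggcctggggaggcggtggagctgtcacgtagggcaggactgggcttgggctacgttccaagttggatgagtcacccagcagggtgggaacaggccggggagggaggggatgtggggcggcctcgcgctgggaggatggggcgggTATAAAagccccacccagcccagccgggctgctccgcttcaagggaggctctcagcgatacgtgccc

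Both strands were searched, and no marked letters overlap. The Trim72 window held 3 E-boxes, the nearest beginning at base -31 from the start site, and the Cav3 window held 2, beginning at -174 and -106. An E-box stood in 72.3% of all 32851 promoter windows of this length, so its presence is common. Anxa1 held an E-box at base 10 and Anxa5 one at -208. A TATAAA stood at -32 in Anxa1 and at -17 in Anxa2, against 13.6% of all windows, and in neither Trim72 nor Cav3. It was also absent from the windows of Anxa5 and Myof, which like Anxa1 and Anxa2 were highest on TG arrays 1 and 2. The motif of the muscle factor MEF2, present in 3.19% of all windows, was found among these genes in 1 of the 2 Capn3 windows, beginning at -72. These matches describe letters and not bound sites.

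Of the 9 genes measured, 4 had a lower mean in TG (Trim72, Cav3, Anxa6 and Dysf) and 5 a higher mean (Anxa1, S100a10, Anxa2, Myof and Anxa5). The median difference in log2 expression, TG minus WT, was 0.11 over the 9 genes, beside -0.016 over all genes, of which 56.2% were lower in TG. In 3 genes, Trim72, Cav3 and Anxa6, each TG array lay below each WT array, as in 7.76% of all genes, and in 0 genes did each TG array lie above, as in 4.52% of all genes. In the fit over all genes (limma, Benjamini-Hochberg adjustment, threshold 0.05), 0 of the 9 passed, where 0.00502% of all genes did; at an unadjusted p under 0.05 there were 2, Trim72 and Cav3, both lower, where 4.79% of all genes were lower and 1.96% higher at that level. When the variance model followed intensity 1 of the 9, Trim72, passed, where 0.0351% of all genes did. Because the genes were chosen with this contrast known, nothing is read from these counts.

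**Figure D1:**
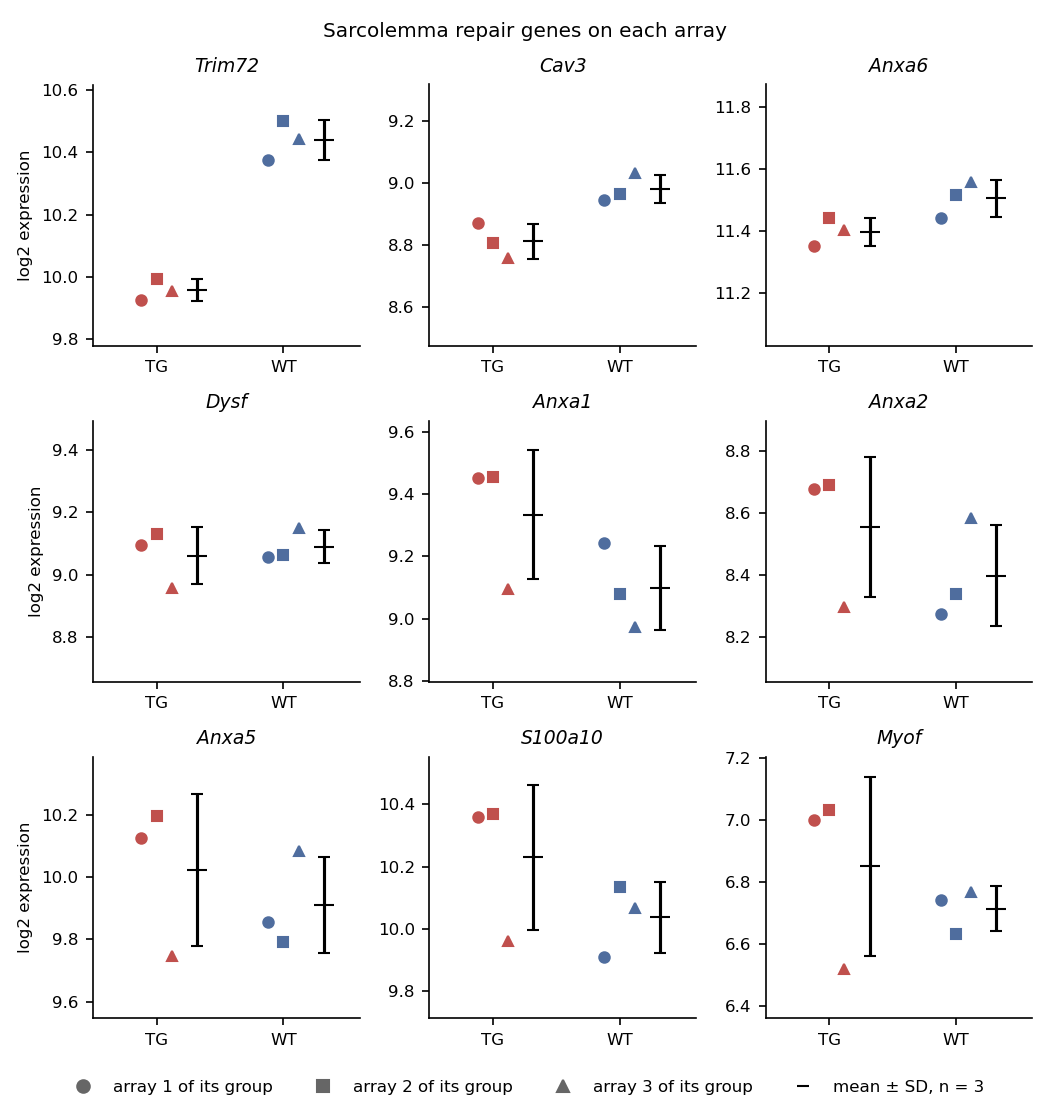
Log2 expression of the 9 measured genes on each array, with TG at the left and WT at the right of each panel; marker shapes give the array's number in its group, which pairs no animals, bars are the mean ± SD (n = 3), and every y axis spans the same log2 range. The TG arrays of Trim72 (9.93 to 9.99) sit apart from the WT arrays (10.38 to 10.50). Anxa1, Anxa2, Anxa5, S100a10 and Myof are highest on TG arrays 1 and 2, with TG array 3 among or below the WT arrays.

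Trim72, the gene of MG53, had log2 values of 9.93, 9.99 and 9.95 on the TG arrays and 10.38, 10.50 and 10.44 on the WT arrays. The lowest WT array stood 0.38 above the highest TG array, a wider gap than the range within TG (0.07) or within WT (0.13). The mean was 9.96 ± 0.03 over the TG arrays and 10.44 ± 0.06 over the WT arrays (SD, n = 3 each). The log2 difference was -0.48 (SE 0.07, 95% interval -0.64 to -0.33), or 1.40-fold lower in TG. Trim72 had the largest difference of the 9 genes, but it was chosen by this difference. Among all genes, 66 were lower in TG by more than Trim72 and 43 were higher by more than its size. Leaving out each array in turn kept the difference between -0.51 and -0.45.

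Cav3 encodes caveolin-3, the muscle form of the protein that builds caveolae, the small pits of the sarcolemma. Its values were 8.87, 8.81 and 8.76 on the TG arrays and 8.95, 8.96 and 9.03 on the WT arrays. The groups did not overlap, but the gap between them, 0.08, was smaller than the range within TG, 0.11. The difference was -0.17 (SE 0.07), smaller than that of Trim72.

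The ferlins are large calcium-binding membrane proteins, and the 2 members measured, Dysf and Myof, gave different patterns. Dysf, which encodes dysferlin, had 9.09, 9.13 and 8.96 on the TG arrays and 9.06, 9.06 and 9.15 on the WT arrays. Its groups overlapped, with the lowest value on TG array 3 and the highest on WT array 3, and the difference of -0.028 (SE 0.07, 95% interval -0.20 to 0.14) became 0.024 without TG array 3. Myof, which encodes myoferlin, a relative of dysferlin that acts in the fusion of myoblasts, had 7.00, 7.03 and 6.52 on the TG arrays and 6.74, 6.63 and 6.77 on the WT arrays. The TG arrays held both its highest values and its lowest one, and the difference was 0.14 (SE 0.14), with 0.05 without TG array 2 and 0.30 without TG array 3. Capn3, the muscle calpain gene, has no value here, since its 1 probe set also carries the symbol of its neighbour Ganc.

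Annexin A6, the product of Anxa6, is the annexin with a doubled core and gathers at the repair cap of injured fibres in mice. Its leading probe set had 11.35, 11.44 and 11.40 on the TG arrays and 11.44, 11.51 and 11.56 on the WT arrays, and the second had 5.65, 5.73 and 5.61 on the TG arrays and 5.73, 5.79 and 5.83 on the WT arrays. In both probe sets the TG arrays lay below the WT arrays with almost no gap, by 0.00076 and 0.00032 on the log2 scale. The second probe set lay below the array medians of 5.98 to 6.04 on every array. The differences of the probe sets were -0.11 (SE 0.07) and -0.12 (SE 0.07).

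The other annexins of the group, with S100a10, had higher means in TG. Anxa1, whose product bridges membranes in the presence of calcium and also restrains inflammation, had 9.45, 9.45 and 9.10 on the TG arrays and 9.24, 9.08 and 8.97 on the WT arrays, a difference of 0.24 (SE 0.12). Anxa2 had 8.68, 8.69 and 8.30 on the TG arrays and 8.27, 8.34 and 8.58 on the WT arrays, a difference of 0.16 (SE 0.13). S100a10 encodes the small protein that joins annexin A2 in a tetramer. It had 10.36, 10.37 and 9.96 on the TG arrays and 9.91, 10.13 and 10.07 on the WT arrays, a difference of 0.19 (SE 0.12). Anxa5, the phosphatidylserine-binding annexin that forms arrays on torn membrane, had 10.13, 10.20 and 9.75 on the TG arrays and 9.86, 9.79 and 10.08 on the WT arrays, a difference of 0.11 (SE 0.13). In each of these 4 genes the groups overlapped, and TG array 3 lay among or below the WT arrays.

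Anxa1, Anxa2, Anxa5, S100a10 and Myof shared an order of arrays: TG arrays 1 and 2 were the highest pair in 5 of the 9 genes measured, namely these, as in 6.51% of all genes. This pattern was noticed in the data. The range over the 3 TG arrays was 0.36 to 0.51 in these 5 genes, beside 0.07 in Trim72, 0.11 in Cav3 and 0.09 in Anxa6. Over the 3 WT arrays it was 0.14 in Myof, 0.23 in S100a10, 0.27 in Anxa1, 0.29 in Anxa5 and 0.31 in Anxa2. In Trim72, Cav3 and Anxa6 the WT range was 0.13, 0.09 and 0.12. By the order that grouped the 5 genes, leaving out TG array 3 must raise each difference. Without TG array 3, the differences were 0.36 for Anxa1, 0.33 for S100a10, 0.30 for Myof, 0.29 for Anxa2 and 0.25 for Anxa5. Without TG array 2 they were 0.18, 0.12, 0.05, 0.09 and 0.02, in the same order of genes.

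Part of the fibroblast and matrix markers and of the macrophage markers had the same highest pair. It was the highest pair in 1 of 8 endothelial, 1 of 7 neutrophil and 0 of 6 lymphocyte markers, beside 6.51% of all genes. Of 9 fibroblast and matrix markers measured, 9 had a higher mean in TG, with a median difference of 0.14, 0 past the threshold over all genes (limma), and 5 with TG arrays 1 and 2 as the highest pair. Their median log2 level was 9.44, 9.53 and 9.11 on the TG arrays and 9.23, 9.31 and 9.13 on the WT arrays, with TG arrays 1 and 2 highest and TG array 3 lowest by this median. Their summed level, taken out of the log, ran between 13070.1 and 15768 in TG and between 12729.8 and 14067 in WT, and WT array 3 was lowest by that measure. Among them Col3a1, a fibrillar collagen gene, had a difference of 0.28 (SE 0.13) and Pdgfra, a receptor gene of fibroblasts, 0.16 (SE 0.07). Among 11 macrophage markers, 4 had TG arrays 1 and 2 as the highest pair, and their median log2 level was 6.52, 6.57 and 6.34 on the TG arrays and 6.16, 6.39 and 6.27 on the WT arrays. In bulk tissue, fewer cells of a type and less RNA per cell cannot be told apart, and the part of fibroblasts and macrophages in the values of the 5 genes was not tested.

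**Figure D2:**
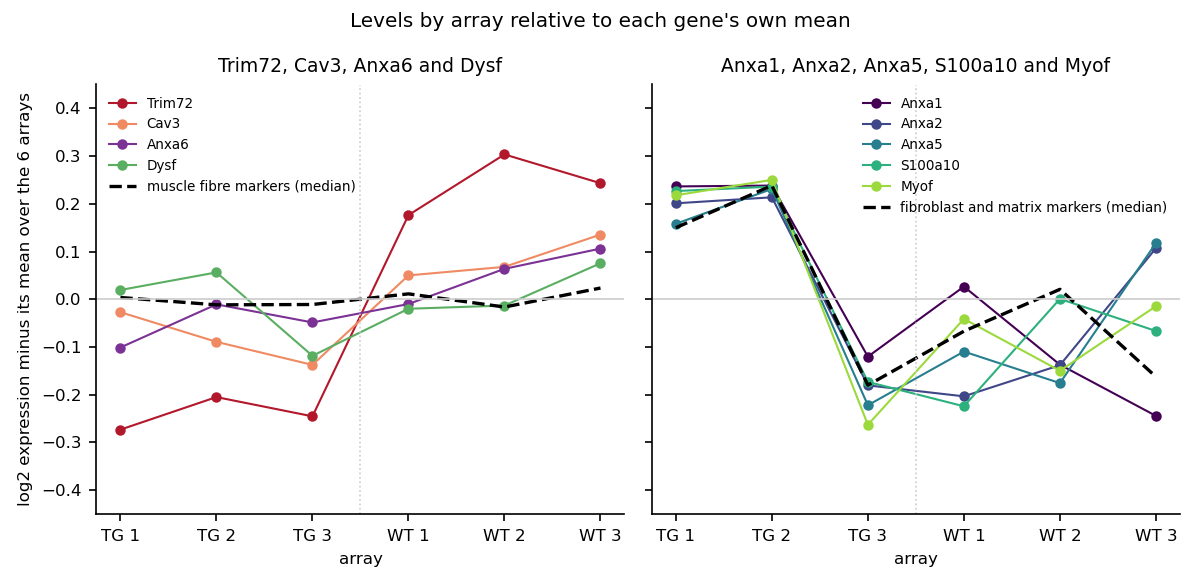
Log2 expression on each array minus the gene's own mean over the 6 arrays, with TG arrays at the left and WT arrays at the right; lines join the values of 1 gene and carry no order of animals, and dashed lines are the median of the muscle fibre markers (left panel) or of the fibroblast and matrix markers (right panel). Trim72 is low on all TG arrays while the fibre markers stay near 0. Cav3 and Anxa6 are lower on TG than on WT arrays, but Cav3 on TG array 1 and Anxa6 on TG array 2 are also near 0. The 5 genes at the right are high on TG arrays 1 and 2 and low on TG array 3, as is the fibroblast median.

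The labelled tissue was checked against the muscle fibre markers, whose median log2 level was 13.91 to 13.92 on the TG arrays and 13.90 to 13.94 on the WT arrays. Of these 18 genes, which include Ckm, Acta1 and the fast myosin genes, 15 had a lower mean in TG, with a median difference of -0.02 and 0 past the threshold. Their summed level was 275132 to 281430 in TG and 278802 to 283048 in WT. With every array centred on this list, Trim72 differed by -0.47, Cav3 by -0.16 and Anxa6 by -0.09, close to the values without centring. Because the fibre medians differed little between arrays, this centring could move no difference far. The part of fibre content in these values was not tested. Slow fibre markers had 7 of 8 genes lower in TG (median -0.10), among them the troponin gene Tnnt1 at -0.21 (SE 0.08).

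Macrophage markers were higher in TG in 9 of 11 genes (median 0.08) and adipocyte markers in 6 of 6 (median 0.19), with the adiponectin gene Adipoq at 0.64 (SE 0.09; limma, adjusted p = 0.299). Tendon markers were lower in 4 of 5 genes (median -0.23), keratinocyte markers in 4 of 5 (median -0.19) and lymphocyte markers in 4 of 6 (median -0.18), with the tendon factor gene Mkx at -0.35 (SE 0.07; limma, adjusted p = 0.546). The keratinocyte median level was 5.29, 5.38 and 5.39 on the TG arrays and 5.18, 5.48 and 5.90 on the WT arrays, highest on WT array 3. Both the keratinocyte and the lymphocyte median lay below the array medians of 5.98 to 6.04 on every array. In addition, endothelial markers were lower in 6 of 8 (median -0.05) and markers of regenerating fibres and satellite cells in 8 of 10 (median -0.03). Liver transcripts, which a muscle fibre does not make, varied most: the summed level of 7 such genes ran from 414 to 3312 in TG and from 1334 to 2533 in WT, and TG array 3 was the lowest and TG array 2 the highest. None of the 110 genes measured in the 14 marker lists passed the threshold (limma), while 7 were lower (4.79% of all genes) and 3 higher (1.96% of all genes) at an unadjusted p under 0.05, and the part of these cells in the values of the repair genes was not tested.

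The genes beside Trim72 on chromosome 7 gave values in both directions. In the gene order of GRCm38.p6 the nearest tested genes are Pycard, Prss36 and Prss8 on one side and the leukocyte integrin genes Itgam, Itgax and Itgad on the other. Itgam, the alpha chain of the macrophage integrin Mac-1 and the next tested gene, had 5.76, 5.61 and 5.53 on the TG arrays and 5.14, 5.17 and 4.88 on the WT arrays, so that the lowest TG array lay 0.36 above the highest WT array. Its difference, 0.57 (SE 0.10; limma, adjusted p = 0.455), is of similar size to that of Trim72 with the opposite sign, and it did not pass. All values of Itgam, and of Itgax, Pycard and Prss8, lay below the array medians of 5.98 to 6.04, unlike those of Trim72. Itgax and Itgad, the other integrins in this row, differed by -0.033 (SE 0.12) and -0.020 (SE 0.09), with overlapping groups.

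On the other side, Pycard, which encodes the inflammasome adaptor ASC, had 5.67, 5.50 and 5.66 on the TG arrays and 5.84, 5.68 and 5.71 on the WT arrays. The highest TG array lay below the lowest WT array by 0.01, with a difference of -0.13 (SE 0.08; limma, adjusted p = 0.793). Prss36, a serine protease gene, had 5.88, 6.06 and 5.95 on the TG arrays and 6.14, 6.26 and 6.28 on the WT arrays, a difference of -0.27 (SE 0.08; limma, adjusted p = 0.676), again without overlap. Prss8 differed by -0.12 (SE 0.13), with overlapping groups, and by -0.013 without WT array 2 and -0.26 without WT array 1. Of the 6 genes beside Trim72, each TG array lay below each WT array in 2 (7.76% of all genes) and above in 1 (4.52% of all genes); none passed the threshold.

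**Figure D3:**
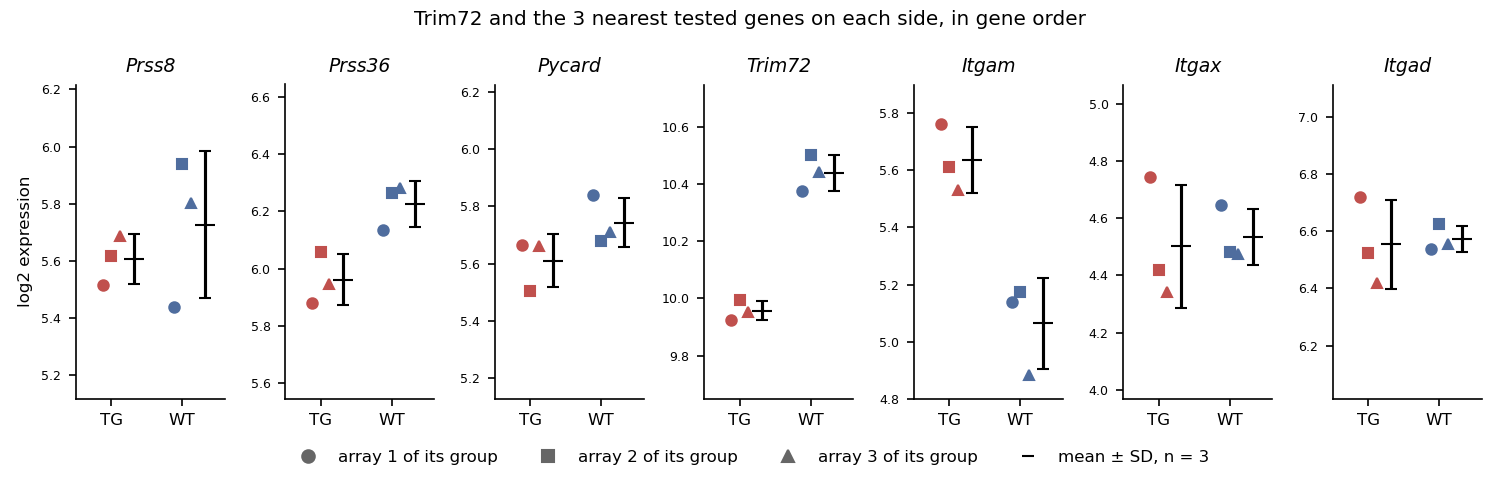
Log2 expression of Trim72 and of the 3 nearest tested genes on each side, in gene order, on the TG (left) and WT (right) arrays; bars are the mean ± SD (n = 3), and every y axis spans the same log2 range. Trim72 and Itgam, which are next to each other, show the widest gaps between TG and WT, in opposite directions.

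Across the 6 arrays, the genes whose log2 values followed those of Trim72 most closely were Exoc7 (Pearson r = 0.992), Gpr4 (0.991), Snx31 (0.989), Zfp991 (0.988) and Trpm8 (0.983). For Trim72 the arrays form 1 cluster per group, so r mostly carries the difference between groups, and 61 genes had an r over 0.95. Exoc7, a subunit of the exocyst that tethers vesicles at the plasma membrane, had 8.70, 8.70 and 8.72 on the TG arrays and 9.05, 9.11 and 9.05 on the WT arrays, a difference of -0.36 (SE 0.06; limma, adjusted p = 0.455). The differences of Zfp991, Trpm8, Gpr4 and Snx31 were -0.61, -0.21, -0.19 and -0.18, and none of the 5 passed. Zfp991 (mean 3.40 in TG, 4.01 in WT), Trpm8 (4.14, 4.34) and Snx31 (5.25, 5.43) lay below the array medians of 5.98 to 6.04. Socs3, named in the series title, had a difference of -0.26 (SE 0.07; limma, adjusted p = 0.660); whether its probe sets would detect the transgene is not known from the labels. Casp12 was the only gene that passed in this fit (adjusted p = 0.0421), and that call was lost without any 1 of the 6 arrays (adjusted p = 0.0959 to 0.471).

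Around the 9 genes, 9 lists held 90 measured genes of the wider repair machinery, and 0 of them passed the threshold in either direction (limma, smallest adjusted p = 0.680). Their median difference was 0.0087, with 39 lower and 51 higher in TG. The largest size was 0.25 (Ehd4), smaller than that of Trim72, which was chosen by its difference. The Ehd4 value was 0.083 without TG array 2. At an unadjusted p under 0.05 there were 3 of the 90, or 3.33%, where all genes gave 6.75%. In 6 of the 90 each TG array was below each WT array (7.76% of all genes), and in 8 above (4.52% of all genes).

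Among the 8 other annexins, 5 had lower means in TG (median -0.07), with Anxa9 at -0.24 (SE 0.07) and Anxa4 at -0.10 (SE 0.06). Anxa9 had 4.72, 4.72 and 4.88 on the TG arrays and 5.01, 5.03 and 4.99 on the WT arrays, without overlap. These values lay below the array medians of 5.98 to 6.04. The S100 and AHNAK list had 6 of 9 genes higher in TG (median 0.04), with S100a4 at 0.16 (SE 0.14) and S100b at -0.11 (SE 0.10). Single arrays carried much of both, S100a4 being 0.022 without WT array 1 and S100b -0.039 without WT array 3. TG arrays 1 and 2 were the highest pair in 3 of its genes, S100a6, S100a11 and Ahnak, which are named after their values were seen. S100a11, the S100 partner of annexin A1, had 9.58, 9.53 and 9.11 on the TG arrays and 9.27, 9.38 and 9.44 on the WT arrays, with TG array 3 lowest.

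Caveolae are coated by cavins and shaped by EHD and BAR-domain proteins. Of 14 such genes, 10 had higher means in TG (median 0.04), with Ehd4 at 0.25 (SE 0.16) and the cavin gene Cavin3 at 0.12 (SE 0.06). Cavin4, the muscle cavin, lay between 10.98 and 11.18 on the TG arrays and between 10.99 and 11.12 on the WT arrays, so its groups overlapped, unlike those of Cav3. Cav1, the caveolin of other cells, had 9.59, 9.60 and 9.47 on the TG arrays and 9.50, 9.44 and 9.60 on the WT arrays, with overlap; it and Cavin4 are named after their values were seen. The remaining ferlins and anoctamins had 4 of 5 genes lower (median -0.01), with the scramblase gene Ano6 at 0.13 (SE 0.07) and Fer1l4 at -0.18 (SE 0.12).

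Other calpains and calpastatin had 5 of 8 genes lower (median -0.02), with Capn2, the large subunit of m-calpain, at 0.09 (SE 0.07) and Capn7 at 0.07 (SE 0.07). The ESCRT machinery, which pinches off damaged membrane, had 8 of 15 genes higher (median 0.0015), with Chmp1b at 0.21 (SE 0.08) and Chmp4b at -0.09 (SE 0.06). Genes of vesicle fusion and lysosome exocytosis had 12 of 16 genes higher (median 0.03), among them the vesicle SNARE gene Vamp7 at 0.20 (SE 0.08) and Nsf, which takes SNARE complexes apart, at 0.15 (SE 0.06). In 5 of these 16 genes each TG array lay above each WT array, as in 4.52% of all genes. The gap was 0.0048 for Snap23, 0.0075 for Smpd1, 0.023 for Vamp3, 0.029 for Vamp7 and 0.077 for Nsf. Snap23, Smpd1 and Vamp3 are named after their values were seen.

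Partners and substrates of MG53 had 6 of 8 genes higher (median 0.02). Insr, the insulin receptor gene, had a difference of 0.10 (SE 0.07), and Irs1, whose product MG53 marks for degradation in mouse muscle, one of -0.18 (SE 0.13) with overlapping groups. The TRIM and MURF relatives had 5 of 7 genes lower (median -0.03), with Trim24 at -0.11 (SE 0.07) and Trim55, the gene of MURF2, at -0.09 (SE 0.07). The differences of all 7 were smaller in size than that of Trim72, which was chosen by its difference.

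**Figure D4:**
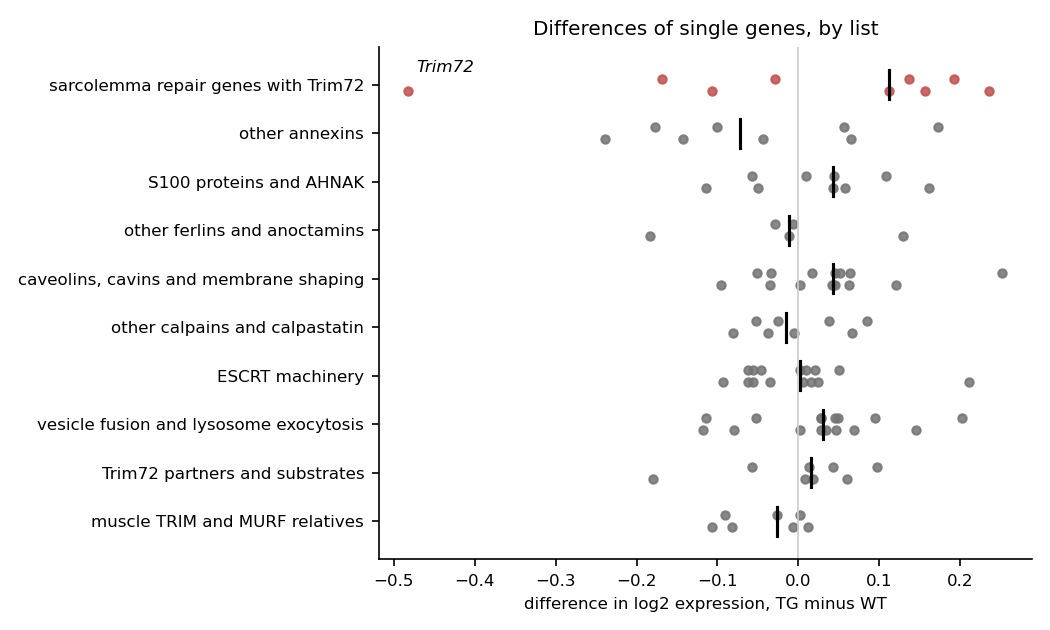
Difference in log2 expression, TG minus WT, of each gene (points) with the median of its list (black line), for the 9 sarcolemma repair genes (top row) and for the 9 lists of other repair genes. Trim72, at -0.48, is the farthest from 0 of all points drawn, but it was chosen by this difference and the other genes were not. The largest size in the other lists is 0.25 (Ehd4).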

How the data were processed

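RNA from frozen skeletal muscle of 6 mice, 3 TG and 3 WT by their labels, was extracted with Trizol and RNeasy columns and labelled with biotin, per the labels' protocols. The authors deposited log2 values for 35557 probe sets; the log2 scale was read from the range, 1.41 to 15.1. How the authors corrected background, summarized and normalized is not stated in the labels, and signal over background could not be assessed. Array medians lay between 5.98 and 6.04, so values were used as deposited. Precision is limited by the number of arrays.

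Symbols came from the platform annotation: 21789 probe sets had 1 symbol, 1621 several and 12147 none. For a gene with several, the one of highest mean level was used, leaving 19938 genes. The TG and WT arrays entered a 2-group linear model in limma 3.58.1 (lmFit, eBayes; R 4.3.3), two-sided, with Benjamini-Hochberg adjustment over all genes at 0.05. Every difference is TG minus WT, and figures used matplotlib 3.10.9. The steps were tested on simulated data. The genes and lists were chosen with earlier results of these data known, and so was the rule for the named genes, which takes the 10 repair genes, genes past the threshold, the 5 most like Trim72, its 3 nearest tested genes on each side, 2 genes per list by smallest p, and Socs3. Alternatives covered variance moderation, array weights, low values, probe sets, normalization, the call rule and each array left out.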

Additional observations from a re-analysis of the deposited data

How the results depend on the processing

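The number of genes past the threshold over all genes was 1. It was 7 with an intensity trend, 2 among the genes above the median level, 0 with robust moderation, with every probe set, with a common array median and with centring on muscle fibre markers, 37 with centring on fibroblast and matrix markers (added after seeing the data, which moved the median of all genes to -0.15), 31 by an unadjusted p under 0.01 with a 1.5-fold change, and 0 to 0 without each array in turn, where 1040 to 1565 genes had an unadjusted p under 0.05. At that level robust moderation gave 1307 genes, every probe set 969, the common median 1305 and fibre centring 1292. Of the 9 repair genes, 4 had lower means in TG, and this count was 3 to 6 over the alternatives. Trim72, Cav3, Anxa6, Anxa1, Anxa2 and S100a10 kept their sign under all 16 alternatives. An intensity trend, robust moderation, every probe set and the genes above the median level leave each difference unchanged. In these no sign could turn. Dysf turned without TG array 3 or WT array 3, and Myof and Anxa5 with fibroblast centring. That centring lowers every difference by the same amount, and moved Trim72 to -0.62, Cav3 to -0.31, Anxa6 to -0.25 and Dysf to -0.17, and turned Ano6 (-0.0098), Cavin3 (-0.017), Capn2 (-0.054), Capn7 (-0.073) and Insr (-0.042), as the shift of all genes does by construction; with it Zfp991 passed the threshold (limma, adjusted p = 0.0435, against 0.306 in the values as deposited). The SE with that centring was 0.19 for Trim72, Dysf and Zfp991 alike, beside 0.07, 0.07 and 0.09 in the values as deposited. Among these genes the call there followed the size of the difference alone. Without each array in turn Itgax ran from -0.15 to 0.048 and Itgad from -0.10 to 0.048. The cause of the other shifts was not tested. No paired analysis was possible because the labels give no replicate numbers. Raw probe signals were not used here, so dim probe sets could not be set apart.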
